A study of Mus musculus with 5 samples.

Results

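The cytosolic ribosomal protein genes encode the proteins of the small subunit (symbols starting with Rps) and of the large subunit (Rpl) of the ribosome that translates messenger RNA in the cytoplasm. Members were taken from Ago HITS-CLIP tables of mouse liver, as every gene whose symbol starts with Rpl or Rps and a digit, without pseudogenes marked -ps and without the Rps6k kinases, and with an entry in a coding sequence (CDS), 3′UTR or 5′UTR. This gave 80 genes of the 14348 with such an entry in at least 1 table. In the GENCODE M21 annotation 82 protein-coding genes fit the name rule, of which Rpl10l, Rpl39l and Rps12 had no entry in these regions, while Rps4l was listed although it is not among the 82.

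Livers of C57BL/6 mice were taken before birth (e12.5, e15.5, e18.5), on day 7 after birth (P7) and from adults aged 6 to 8 weeks. They were crosslinked in 3 exposures with 254 nm light, and RNA bound to Argonaute (Ago), the protein that holds miRNAs on their targets, was recovered with antibodies and sequenced. Ago2 antibodies were used at every stage, and an Ago1 antibody was added at P7 and in adult liver alone, so that its effect and that of age after birth cannot be told apart. Each stage had 1 table and no labelled replicate. Therefore no test between stages was possible, and each difference below is a difference between 1 table and another. Whole livers were used. Before birth they also hold blood-forming cells, and fewer cells of a type and less RNA per cell cannot be told apart in such samples.

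Ribosomal proteins are made in large and matched amounts, and most of their mRNAs have a short 3′UTR and start with a 5′ terminal oligopyrimidine (TOP) tract, through which their translation follows growth signals. The fetal liver is the main site of blood formation, and miR-142a-3p, a miRNA of blood cells, and miR-144-3p, a miRNA of red cell precursors, were the first and the second in miRNA number in all 3 embryonic tables. An Ago cluster is a stretch of overlapping reads, and its height is its highest read number. Heights were added up over the clusters of a gene and divided by the summed heights of all clusters of the table, and these scaled reads are given per 1000000. Where 5 values follow each other, they run in the order of the stages, from e12.5 to adult liver. Clusters of fewer than 5 reads are not in the tables, so a gene that was not listed may still have been bound.

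The sites that carried most of the reads are shown first. The miRNAs below are RefSeq mature sequences (GRCm38.p6), with the seed, bases 2 to 8, in capitals.
miR-142a-3p: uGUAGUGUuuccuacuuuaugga
miR-144-3p: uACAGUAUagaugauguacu
miR-101b-3p: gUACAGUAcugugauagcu
miR-92a-3p: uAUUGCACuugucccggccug
let-7a-5p: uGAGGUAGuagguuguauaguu
Their sites on the members are given on the mRNA strand from GRCm38 (mm10), with the bases of the site in capitals and the flanks in lower case, to show which stretch of each gene was matched. A 7mer-m8 site pairs with bases 2 to 8 of the miRNA, a 7mer-A1 site pairs with bases 2 to 7 and has an A opposite base 1, and an 8mer has both.
Rpl26, CDS, miR-142a-3p: tcaggttgttcgcggACACTACAaaggcca
Rpl37, CDS, miR-142a-3p: aggctaagagacgaaACACTACcgggactg
Rps6, CDS, miR-142a-3p: ttcctggactgacagACACTACtgtgcctc
Rps19, CDS, miR-144-3p: tcagatgcccggagtTACTGTAaaagacgt
Rps19, CDS, miR-101b-3p: tcagatgcccggagtTACTGTAAaagacgt
Rpl3, CDS, miR-101b-3p: aaggctttcaccaagTACTGTAAgaaatgg
Rpl13, 3′UTR, miR-92a-3p: tctgtgttggagagcTGCAATAaattttcc
Rps13, 5′UTR, let-7a-5p: ttcctgtgccgtttcCTACCTCgttctctc

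The members together carried 1581, 1296, 689.5, 296 and 126 scaled reads from e12.5 to adult liver. Each table was below the one before, and e12.5 was 12.54-fold above adult, while the summed scaled reads of all mRNA clusters were 1.73-fold higher at e12.5 than in adult liver. As a share of the reads in mRNA clusters alone, the members took 0.679%, 0.437%, 0.230%, 0.145% and 0.0936% from e12.5 to adult liver. Markers of red cell precursors were also high before birth: the 10 listed erythroid genes summed to 66455, 89659, 96245, 34527 and 1632 scaled reads from e12.5 to adult liver. The erythroid sum was thus at its highest at e18.5, where the members were already below their e12.5 value. The 10 hepatocyte markers summed to 1641, 4859, 10240.4, 10413 and 10698 from e12.5 to adult liver, and in adult liver Afp, the fetal albumin-like protein, was the 1 of them not listed. Of the erythroid genes, 5 of 10 were listed in adult liver, and Slc4a1, Hemgn, Hbb-y and Hba-x were among those that were not. What part cell composition has in the members' lower values was not tested. A cluster's height can follow the amount of an mRNA as well as its binding by Ago, and the tables give no mRNA level to divide by.

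**Figure D1:**
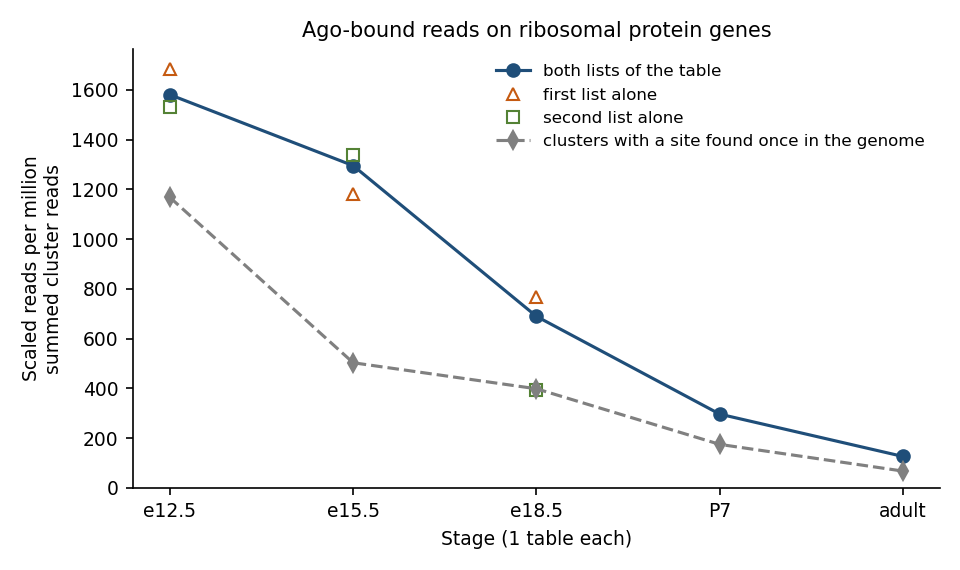
Summed scaled reads (vertical axis) of the 80 ribosomal protein genes against stage (horizontal axis, 1 table each): filled circles are whole tables, open triangles and squares the first and the second list of the embryonic tables, and grey diamonds the clusters with at least 1 site whose surrounding sequence occurs once in the genome. The whole tables fall from 1581 at e12.5 to 126 in adult liver, and the lists of e18.5 stand apart at 767 and 394.

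The embryonic tables each hold 2 lists of clusters, which the labels do not explain. The first list of e12.5 gave 1683 scaled reads and the second 1531, and the lists of e15.5 gave 1183 and 1337. Those of e18.5 gave 767 and 394, so the second list of e18.5 lay near the P7 value of 296 and the first well above it. Which library each list comes from is not stated, and the step from e18.5 to P7 depended on it. Per 1000000 total reads of the library named for each stage, the members had 1045, 807, 407, 242 and 103 from e12.5 to adult liver. With the second library that is named for e18.5 added to the total, e18.5 stood at 77.3, below P7.

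All 80 members were listed at e12.5, the table with the most reads, and the other tables listed 74, 68, 68 and 62 of them in the order of the stages. There were 51 members listed in every table, and 2, Rpl29 and the muscle form Rpl3l, were listed at e12.5 alone. The members had 477, 269, 173, 182 and 144 mRNA clusters from e12.5 to adult liver. These were 0.501% (Wilson 95% interval 0.459 to 0.548), 0.597% (0.530 to 0.672), 0.407% (0.351 to 0.473), 0.227% (0.196 to 0.263) and 0.269% (0.229 to 0.317) of all mRNA clusters from e12.5 to adult liver. The intervals of the 3 embryonic tables do not overlap those of P7 and adult liver, and those of P7 and adult liver overlap each other. All intervals cover counting error only. The median height of a member cluster went from 36 reads at e12.5 to 13 in adult liver, beside 33 and 23 for all mRNA clusters.

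The clusters of the members lay mainly in coding sequences. The CDS held 83.6% (80.1 to 86.7), 87.7% (83.3 to 91.1), 85.5% (79.5 to 90.0), 87.4% (81.8 to 91.4) and 90.3% (84.3 to 94.1) of them from e12.5 to adult liver. Over all genes the CDS held between 61.3% (e12.5) and 72.9% (adult) of the mRNA clusters, below the interval of the members in every table. The 3′UTR held 18.2% of the member clusters at e12.5 (15.03 to 22.0) against 8.33% in adult liver (4.83 to 14.0), beside 41.5% and 29.7% over all genes. In counts, 87, 42, 21, 26 and 12 member clusters were in a 3′UTR from e12.5 to adult liver. Between 38.1% and 66.7% of these were listed under a CDS as well, beside 15.8% to 21.5% over all genes. A stretch can be CDS in one transcript and 3′UTR in another, but how many of these clusters this accounts for was not tested. The 5′UTR held 41, 17, 14, 15 and 12 member clusters from e12.5 to adult liver. Their share was 8.60% at e12.5 (6.399 to 11.5), above the 5.27% of all genes, and in the other 4 tables its interval held the share of all genes.

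**Figure D2:**
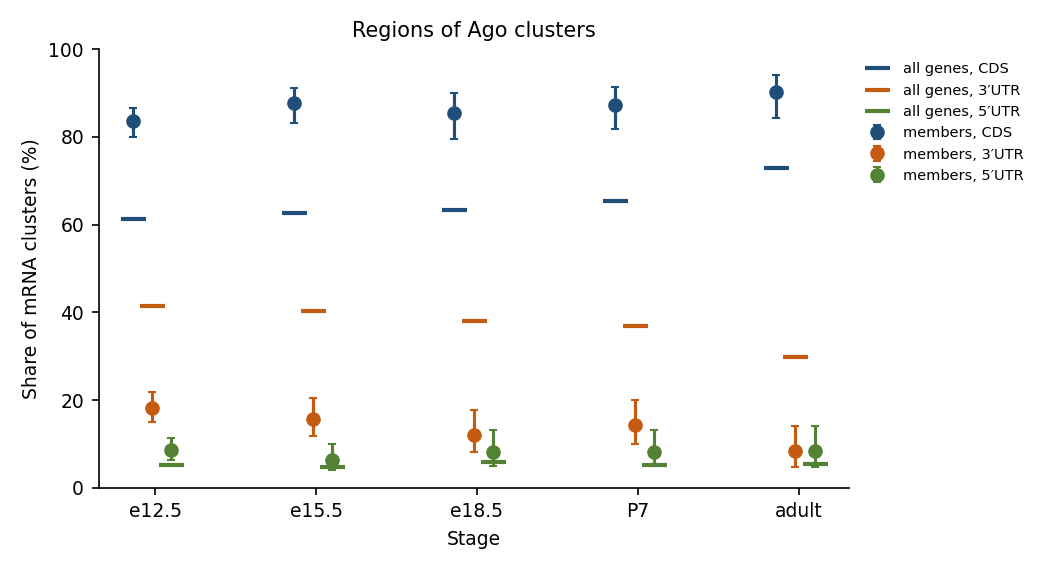
Share of mRNA clusters in percent (vertical axis) in CDS, 3′UTR and 5′UTR at each stage (horizontal axis): points with bars are the ribosomal protein genes with Wilson 95% intervals, short lines all genes. The members lie above all genes in the CDS, between 83.6% and 90.3%, and below them in the 3′UTR.

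The mRNAs of the members are short. For the 79 members with a coding transcript in GENCODE M21, the median was 456 bases of CDS and 92 bases of 3′UTR, beside 1401 and 926 over all listed genes. Per kb of CDS the members had 9.82, 5.81, 3.63, 3.91 and 3.14 clusters from e12.5 to adult liver. All genes had 2.24, 1.09, 1.03, 2.02 and 1.503, so the density in the CDS was higher for the members in each table. Per kb of 3′UTR the members had 3.06, 1.48, 0.738, 0.914 and 0.422 from e12.5 to adult liver. All genes had 1.95, 0.899, 0.800, 1.46 and 0.788 per kb of 3′UTR. There the members were above all genes at e12.5 and e15.5 and below them at e18.5, P7 and in adult liver. Without clusters that were also listed under a CDS, the members had 1.69, 0.703, 0.457, 0.457 and 0.141 per kb and all genes 1.63, 0.752, 0.675, 1.22 and 0.620, so that both were close at e12.5 and the members were lower in the other 4 tables.

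A TOP-like start, a C followed by 4 pyrimidines (C or T) that begins within 5 bases of the RefSeq start on the gene's strand, was found for 29 of the 60 members with a promoter in the RefSeq table (48.3%, Wilson 36.2 to 60.7). Of all 27025 genes of that table, 21.2% held it. The match is a description of letters at the annotated start.

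Many of these sequences exist elsewhere in the genome. Ribosomal protein genes have many processed pseudogenes, and the treatment of reads that map to several places is not given in the sources used here. A site whose 24 surrounding bases occur once in GRCm38 was held by 212 of 477 member clusters at e12.5, and in the later tables by 91 of 269, 57 of 173, 80 of 182 and 58 of 144. These shares, 32.9% to 44.4%, compare with 91.6% to 95.2% for all mRNA clusters. Between 61.5% and 73.4% of the member clusters had an entry that was listed again at another place with the same miRNA, fragment and read number, beside 8.60% to 10.8% of all mRNA clusters. Of the other places of these entries, 61.1% to 69.0% were in annotated pseudogenes and 24.7% to 30.3% outside genes. Reads given to a member may therefore come from another copy, and the reverse. With clusters that hold such a once-found site alone, the summed scaled reads were 1168, 503, 398, 175 and 67.3 from e12.5 to adult liver. The Rpl26 cluster counts there at e12.5 and e18.5 alone, with 421 and 111 scaled reads for the gene, through other sites of the cluster, and at e15.5 and P7 the gene had 1.76 and 1.58. With clusters in which no site is found elsewhere, the sums were 204, 245.3, 153, 91.6 and 30.6, with e15.5 above e12.5.

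Rpl26, a large-subunit protein at the exit of the peptide tunnel, led the members. Its scaled reads were 423, 404, 114, 10.9 and 0.362 from e12.5 to adult liver. The first pair of tables was nearly level, and adult liver held 9 reads in 1 cluster. Almost all of it came from 1 cluster at the 8mer site of miR-142a-3p at chr11:68903190-68903197 on the plus strand, in the CDS in exon 3 of 4, which held 99.0% of the gene's reads at e12.5. That site had 18779, 6643, 1450 and 154 reads in the 4 tables up to P7, and it was not listed in adult liver. In rank by height among all mRNA clusters of its table, this cluster was at 16 of 95118 (e12.5), 20 of 45083 (e15.5), 83 of 42466 (e18.5) and 1641 of 80134 (P7). The cluster also holds sites of other miRNAs. At e12.5 it had sites of 33 miRNAs, 19 of them with 7 or 8 matched bases. Of the 20 most abundant miRNAs there, miR-486a-5p and miR-486b-5p had an 8mer at 294 reads and miR-378a-3p a 7mer-m8 at 190, against 18779 at the miR-142a-3p site. The less abundant miR-93-3p, miR-378d and miR-3098-3p had sites at the full 18779, and the reads do not tell which miRNA was bound. The 9 reads of adult liver lay at sites of 5 miRNAs, among them a 7mer-m8 site of miR-378a-3p. The 24 bases around the miR-142a-3p site occur 4 times in the genome, so the reads cannot be assigned to Rpl26 alone by this stretch.

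Rps19, a small-subunit protein whose loss is known to impair red cell formation, came second. Its scaled reads were 157, 125, 22.4, 22.4 and 1.29 from e12.5 to adult liver. The first 2 tables stood above the others, and e18.5 and P7 were level. Here too 1 cluster held most, from 90.4% to 98.4% of the gene's reads in the 4 tables before adult liver, at chr7:24885147-24885154 on the plus strand, in the CDS in exon 2 of 5. Its bases match miR-144-3p and miR-101a-3p as a 7mer-A1 and miR-101b-3p as an 8mer. Sites of miR-582-5p and miR-802-5p had the same height at e12.5, and the reads do not tell which miRNA was bound. The site had 6854, 2030, 264 and 338 reads up to P7, and was not listed in adult liver. Unlike those of the Rpl26 site, its 24 bases occur once in the genome.

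The miRNA numbers of the tables, taken here as read counts of the miRNAs, were lower after birth for miR-142a-3p and miR-144-3p. Per 1000000 of all miRNA numbers, miR-142a-3p stood at 322029, 371353, 239141, 88784 and 43356 from e12.5 to adult liver, and miR-144-3p at 216916, 101808, 95803, 19674 and 15366. The other miRNAs of the Rps19 site were higher after birth, miR-101b-3p with 1011, 1291, 2649, 4617 and 6174 and miR-101a-3p with 132, 198, 582, 1313 and 2934 in the same order. All mRNA clusters with a 7- or 8-base miR-142a-3p site summed to 3295, 3251, 2809, 1204 and 615 scaled reads from e12.5 to adult liver. The members supplied 13.7%, 13.4%, 4.60% and 1.16% of these reads up to P7 and none in adult liver, where 174 such clusters were listed on other genes. The share on the members was thus lower at e18.5 than at e15.5, with the sum over all genes at 2809 and 3251. Most of the members' reads here were at the Rpl26 site. It had 419, 402, 111 and 9.33 scaled reads up to P7, of 451, 435, 129 and 13.9 for the members. For miR-144-3p the members supplied 5.29%, 2.36%, 0.976%, 1.52% and 0.118% from e12.5 to adult liver.

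**Figure D3:**
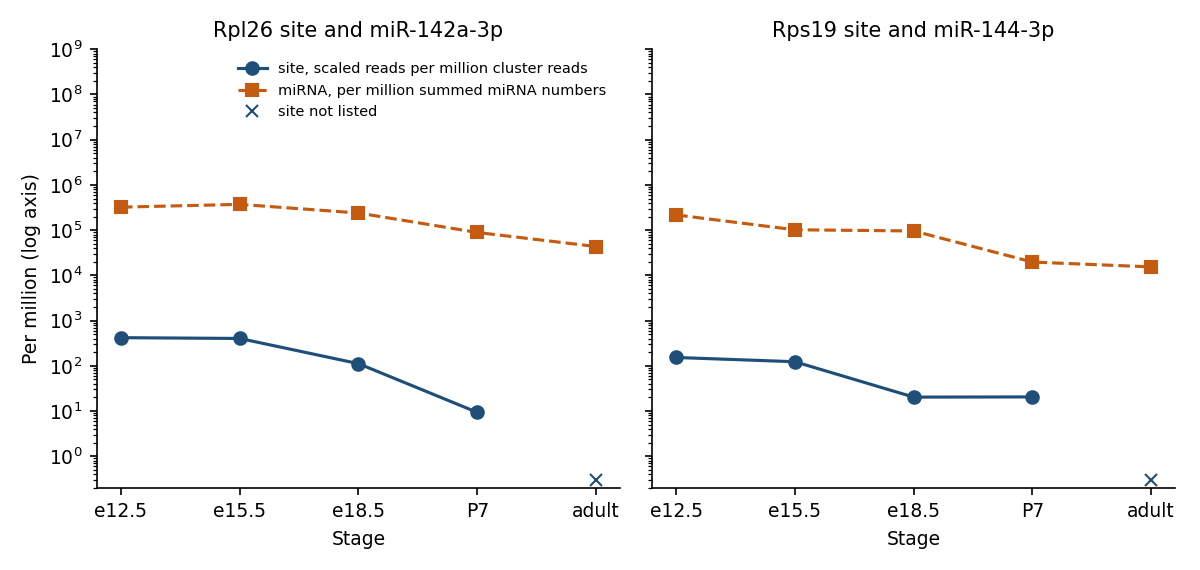
Scaled reads of the Rpl26 site (left panel) and the Rps19 site (right panel) as blue circles, with miR-142a-3p and miR-144-3p per 1000000 miRNA numbers as orange squares, against stage; the vertical axis is logarithmic and a cross marks a table where the site was not listed. The Rpl26 site goes from 419 at e12.5 to 9.33 at P7, while miR-142a-3p goes from 322029 to 88784.

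Further CDS sites followed at lower height. The 7mer-m8 site of miR-142a-3p in Rpl37, at chr15:5117649-5117655 in exon 3 of 4, had 10.3, 15.3, 15.7 and 3.88 scaled reads in the 4 tables up to P7. The miR-142a-3p site in Rps6, the protein phosphorylated by S6 kinase, at chr4:86855980-86855986 on the minus strand in exon 4 of 5, had 16.5, 18.0, 1.999 and 0.727 in the same tables. Neither site was listed in adult liver. The bases of a further miR-223-3p site in Rps6 lie just before the miR-142a-3p site.

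Sites in the untranslated regions carried fewer reads. The highest entries listed under a 3′UTR were the overlapping miR-101 and miR-144-3p sites of Rpl3 at chr15:80080993-80081001, which fall in CDS exon 4 of 10 of the annotated coding transcript. They had 25.3, 5.51, 3.61, 0.970 and 0.884 scaled reads from e12.5 to adult liver, and their 24 bases occur 9 times in the genome. In a 3′UTR proper, the 7mer-A1 site of miR-92a-3p and miR-25-3p in Rpl13, at chr8:123105219-123105225 in the last exon, had 14.3, 1.21 and 7.53 scaled reads in the embryonic tables and was not listed after birth. A miR-194-5p site in the 3′UTR of Rps21 was listed at e18.5 with 3.997 and in adult liver with 1.08, and a miR-26 site in the 3′UTR of Rpl5 had 5.53 at e18.5 alone. In the 5′UTR, the sites of miR-673-5p and miR-146a-5p in Rpl38 had the highest means of these, with 8.51 and 8.02 at e12.5, against 1.15 at e15.5. The let-7 site in exon 1 of Rps13, at chr7:116334139-116334145 on the minus strand, had 3.14 at e12.5, then 3.09 at e15.5, and 0.970 at P7, and was not listed in the other tables. Only Rps19, Rps27l and Rpl3 had a cluster listed under a 3′UTR in all 5 tables.

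Each of the 10 members with the highest mean over the tables was lowest in adult liver. Rps3, a small-subunit protein at the mRNA entry, had 119.6, 37.5, 50.5, 16.2 and 3.38 scaled reads from e12.5 to adult liver. Rpl35a, a large-subunit protein, had 44.3, 52.2, 26.6, 11.5 and 1.45 in the same order, and Rpl14 had 28.2, 36.3, 12.53, 3.33 and 1.33. Rps3 was highest at e12.5, and Rpl35a and Rpl14, another of that subunit, were higher at e15.5 than at e12.5. Rpl4, which lines the peptide tunnel, had 61.5, 28.6, 35.5, 15.8 and 14.2, and Rpl6, a protein of the large subunit, had 51.0, 39.0, 38.9, 23.3 and 10.3. Rpl8 ran from 26.4 at e12.5 to 3.90 in adult liver, with e18.5 and P7 level at 13.5 and 13.4.

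The reads were spread unevenly over clusters. The highest member cluster of each table held 26.5%, 31.0%, 16.2%, 6.91% and 5.26% of the members' reads from e12.5 to adult liver. This was Rpl26 in the 3 embryonic tables, Rps19 at P7 and Rpl37 in adult liver. Without Rpl26 and Rps19, a choice made after their values were seen, the other members still summed to 1002, 767, 553, 263 and 124 from e12.5 to adult liver.

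**Figure D4:**
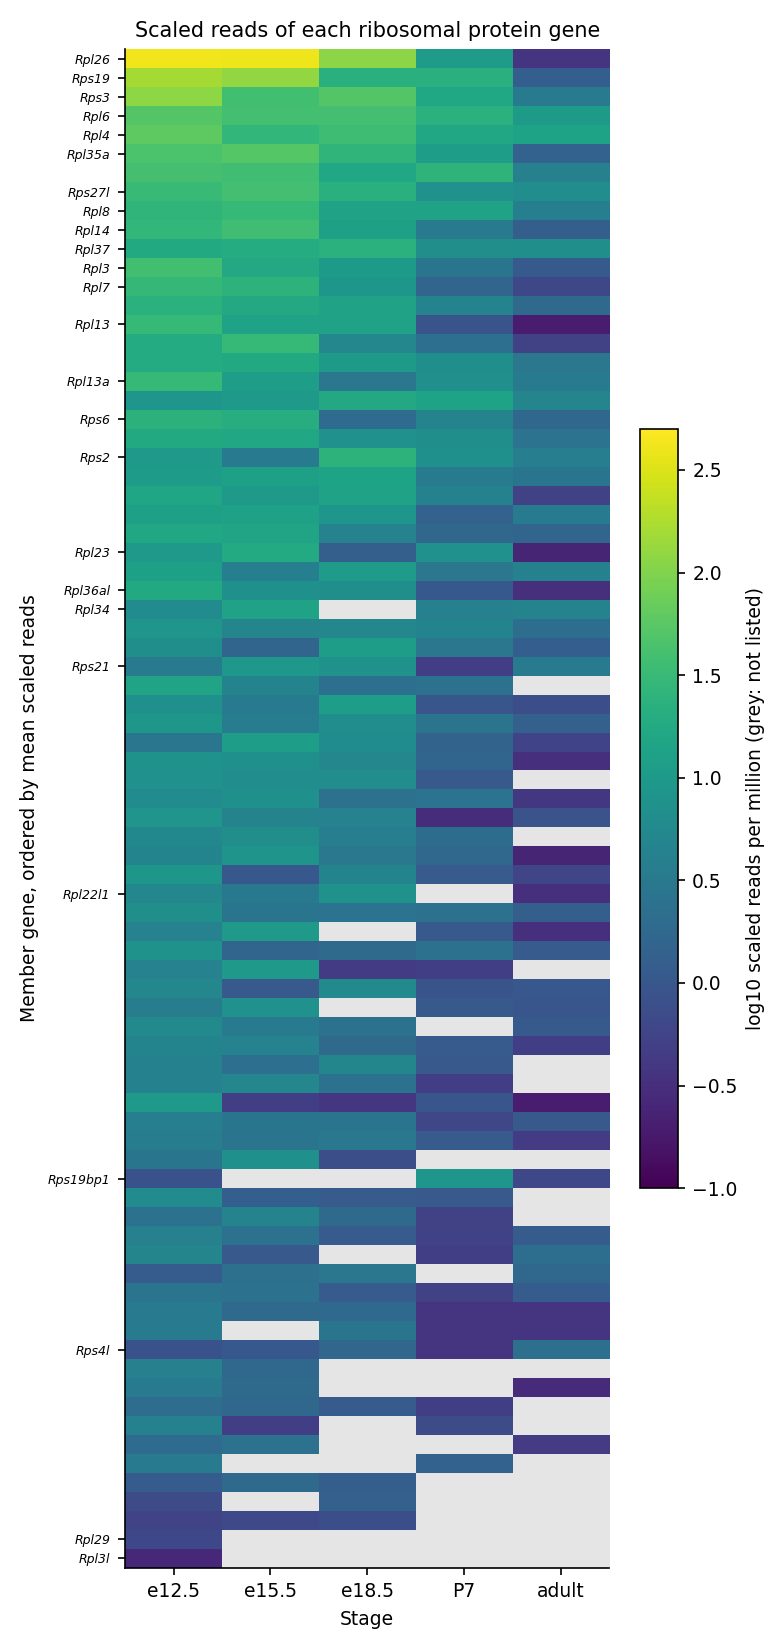
Scaled reads of each of the 80 member genes (rows, ordered by mean over the 5 tables) at each stage (columns), as colour on a log10 scale, with grey where a gene was not listed and names beside 25 of the rows. Rpl26 leads at e12.5 and e15.5 with 423 and 404, and adult liver has 18 grey cells.

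Adult liver was compared with e12.5 gene by gene on the log2 scale after adding 1 scaled read, for genes whose mean over the 5 tables reached 2 scaled reads, and a change of 2-fold was counted as lower or higher. Of the 80 members 59 passed this filter. Among them 56 were lower in adult liver and 0 higher, and 3 lay within 2-fold, among them Rpl34 and Rps21. Over all 9251 genes 48.7% were lower and 18.52% higher. The median log2 change was -2.32 for the members and -0.94 for all genes, and 23.6% of all genes lay below the members' median. Of the 56, 7 were not listed in adult liver, so their change has no lower end. Relative to the median of all genes, 40 members were lower and 0 higher, with 30.5% of all genes lower and 30.6% higher. With reads scaled to the reads of mRNA clusters, 48 were lower and 0 higher, beside 36.9% and 27.9% of all genes. With a pseudocount of 5 scaled reads in place of 1, 36 were lower and 0 higher, beside 33.5% and 11.8% of all genes. When a cluster needed a site found once in the genome, 29 members passed the filter, of which 26 were lower and 2 higher, beside 48.2% and 18.9% of all genes. Among the 21 members that did not pass the filter, 19 had a lower value in adult liver than at e12.5, beside 48.7% of the 5097 genes of the tables that did not pass it.

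The lowest changes of adult over e12.5 were those of Rpl26 (log2 -8.28), Rps19 (-6.11), Rps3 (-4.78), Rpl13 (-4.69), Rpl35a (-4.21) and Rpl7 (-4.21). Rpl13 went from 29.9 scaled reads at e12.5 to 0.201 in adult liver, which was 5 reads. Rpl7 went from 29.4 to 0.643. Among those at the other end were Rps21 (0.01), Rpl34 (-0.34), Rps2 (-1.20), Rpl36 (-1.23) and Rpl7l1 (-1.25). Rps21 had 3.39, 9.38, 7.69, 0.485 and 3.42 from e12.5 to adult liver, without a steady course, and its change depended on the list and on copies. With the first list alone it was 2.14, the 1 member of 62 that was higher in that setting, with the second list it was -0.46, and with once-found sites 1.16, past 2-fold. For Rps2 the value at e12.5 rests on copies: with once-found sites alone it had 1.003 at e12.5 but 3.82 in adult liver, the reverse of its order with all clusters.

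**Figure D5:**
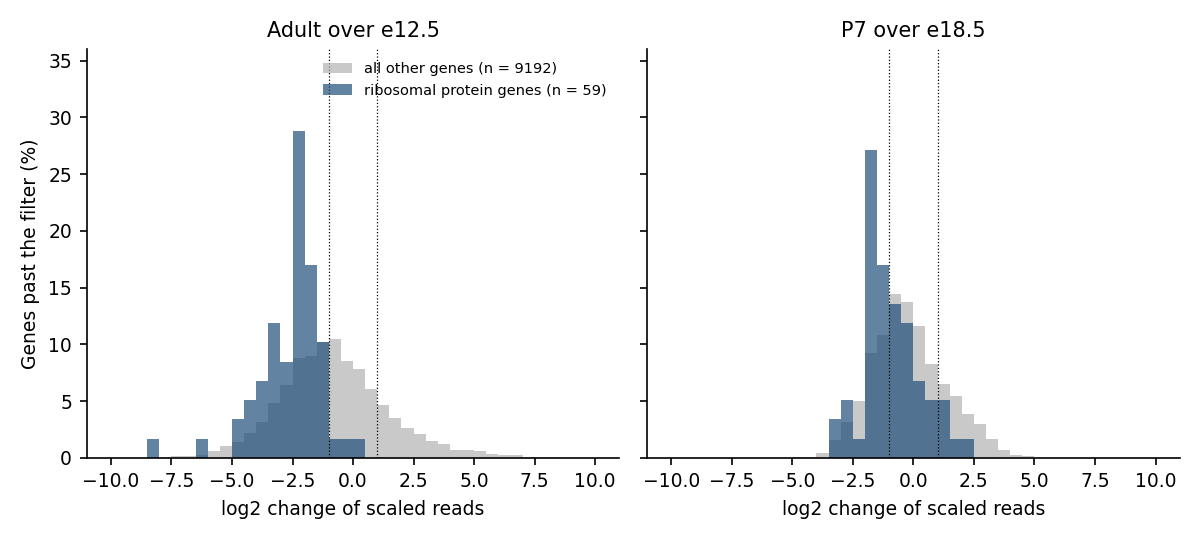
Distribution of log2 changes of scaled reads (horizontal axis) for adult over e12.5 (left) and P7 over e18.5 (right), as percent of the genes past the filter (vertical axis), for the 59 ribosomal protein genes in blue and all other genes in grey; dotted lines mark 2-fold. The members' median lies at -2.32 on the left and -1.15 on the right.

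Across birth, P7 was compared with e18.5 in the same way, a comparison that shares no table with the first. Of the 59 members 32 were lower at P7 and 5 higher, beside 30.5% lower and 21.6% higher over all genes. The median log2 change was -1.15 for the members and -0.33 for all genes. This comparison depended on the list of e18.5. With the second list alone, 5 of 50 members were lower and 19 higher, and the median was 0.54, beside 0.43 for all genes, of which 14.2% were lower and 34.2% higher. When reads were scaled to the reads of mRNA clusters, 23 members were lower and 8 higher, beside 19.04% and 29.7% of all genes. With whole-library totals as the denominator, 25 were lower and 8 higher, beside 21.1% and 28.5%, where 1 library was taken for e18.5. With both e18.5 libraries in the total, 1 of 63 members was lower and 30 higher, beside 1.03% and 78.8% of all genes, and the medians were 0.94 and 1.97. The direction of this comparison is thus not settled, while the members' median was below that of all genes with either total. With the median of all genes at 0, 26 were lower and 6 higher, beside 23.2% and 26.7%. When a cluster needed a once-found site, 13 of 29 members were lower and 5 higher, beside 29.9% and 22.4% of all genes, and the median was -0.23 against -0.30 for all genes. The 5 higher members were Rpl34, Rpl23, Rpl10a, Rpl7l1 and Rpl13a, and 3 of them, Rpl34, Rpl10a and Rpl7l1, were not listed at e18.5. Rpl23 had 1.31 at e18.5 and 7.45 at P7, and Rpl13a had 2.92 and 7.15. The lowest were Rpl26 (log2 -3.27), Rpl22l1, which was not listed at P7, and Rpl13 (-2.93). With the second e18.5 list alone Rpl13 stood at 0.93.

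By stage, 32 of the 59 members past the filter had their highest value at e12.5, 18 had it at e15.5, 9 had it at e18.5 and 0 after birth. Over all 9251 genes, 18.7%, 26.9%, 29.9%, 14.98% and 9.42% were highest in the respective table. A lower value at each step from e15.5 to adult liver was seen for 24 of the 59 members (40.7%) and for 17.0% of all genes.

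Both subunits were lower in adult liver. The 29 small-subunit members summed to 520.3, 348, 234, 114 and 46.9 scaled reads from e12.5 to adult liver. The 43 large-subunit members summed to 996, 887, 416, 163 and 66.9. In adult liver against e12.5, 20 of 21 small-subunit and 32 of 34 large-subunit members were lower, with medians of -2.07 and -2.58, beside 48.7% of all genes and their median of -0.94. At P7 against e18.5, 13 of 21 and 16 of 34 were lower, and 0 and 4 were higher, beside 30.5% and 21.6% of all genes. With the second list of e18.5 alone, or with both e18.5 libraries in the total, this comparison turned for the members together, as given above.

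The other 8 members are paralogs or only share the name. Rps27l, a paralog of Rps27 that p53 is known to induce, was by far the highest, with 32.3, 39.0, 22.2, 7.39 and 6.51 from e12.5 to adult liver. Rpl36al had 17.7 at e12.5 against 0.321 in adult liver, Rpl22l1 had 5.22 and 0.321, and Rpl7l1 had 3.68 and 0.964. Rps27 and its retrotransposed copy Rps27rt had the same 2.42, 1.15, 0.545 and 1.21 from e15.5 to adult liver, and no site of either occurs once in the genome, so their reads cannot be told apart. Rps4l had 0.869, 1.03, 1.69, 0.364 and 2.29 over the stages. Rps19bp1, a binding partner of Rps19 and not a ribosomal protein, was listed at e12.5 (0.847), P7 (8.36) and in adult liver (0.643) and was the member with its highest value at P7. Rpl3l had 0.267 at e12.5 alone.

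Most of the other genes of translation were lower in adult liver as well, with their own sizes. The 7 listed cytosolic ribosomal proteins whose names fall outside the rule (among them Rpsa, Rplp0, Fau and Gnb2l1) summed to 284 at e12.5 against 30.4 in adult liver, and 6 of 7 were lower and 0 higher, where 48.7% of all genes were lower and 18.52% higher. Gnb2l1, which encodes the scaffold Rack1 of the small subunit, had 173, 118, 63.9, 7.09 and 11.98 from e12.5 to adult liver. The elongation factors summed to 375 at e12.5 against 69.9 in adult liver, and the 5 past the filter were lower. Eef2, which moves the ribosome along, had 208 and 42.6, and Eef1a1, which brings in tRNA, had 102 and 21.9. Of 13 other mRNAs known to carry a TOP tract, 9 were lower and 0 higher, beside 48.7% and 18.52% of all genes, among them Npm1 (152 and 0.482), Pabpc1 (246 and 9.85) and Eif4b (109 and 13.5). Of 15 ribosome biogenesis genes past the filter, 12 were lower and 0 higher, among them Ncl (83.7 and 7.55) and Ubtf (49.8 and 2.33). The 77 listed mitochondrial ribosomal protein genes, whose products build the separate ribosome of mitochondria, summed to 405, 353, 324, 216 and 160.4 from e12.5 to adult liver. The ratio of e12.5 to adult was 2.53 there and 12.54 for the cytosolic members, and the mitochondrial sum was the higher of the 2 in adult liver, 160.4 against 126. Of 50 mitochondrial genes past the filter, 30 were lower and 4 higher, beside the 48.7% and 18.52% of all genes given above. At P7 against e18.5, 20 of these 50 were lower and 11 higher, beside 30.5% and 21.6% of all genes.

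Most miRNAs of a table had a site in a member. At e12.5, 711 of the 745 miRNAs with a site in any mRNA cluster had one in a member, and in adult liver 344 of 585. A site of one of the 20 most abundant miRNAs of the table was present in 19.9% (Wilson 16.6 to 23.7), 16.0% (12.1 to 20.8), 19.1% (13.9 to 25.6), 19.2% (14.2 to 25.6) and 19.4% (13.8 to 26.7) of the member clusters from e12.5 to adult liver. All mRNA clusters had 17.9%, 19.5%, 19.5%, 18.96% and 23.1%, inside the members' interval in each table. Sites of 6 matched bases made up 51.7% to 54.2% of the members' sites and 53.3% to 54.5% of all. The median conservation score of CDS sites was 0.996 to 0.998 in the members and 0.942 to 0.985 over all genes.

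Among abundant miRNAs, the family of miR-15a, miR-15b, miR-16 and miR-195a, which share the seed AGCAGCA, had sites in the most member clusters over the 5 stages together, with 24, 13, 8, 6 and 10 from e12.5 to adult liver. It also had the most clusters over all genes. Its share of the member clusters was 5.03% (Wilson 3.40 to 7.38), 4.83% (2.85 to 8.09), 4.62% (2.36 to 8.86), 3.30% (1.52 to 7.005) and 6.94% (3.82 to 12.3), and each interval held the share of all mRNA clusters, which was 4.06%, 4.40%, 4.85%, 4.48% and 4.72%. miR-16-5p was the second most abundant miRNA in adult liver at 140413 per 1000000 miRNA numbers, beside 34870 at e12.5. The scaled reads of those clusters were 99.5 at e12.5 and 9.16 in the adult. miR-145a-5p had sites in 13, 8, 8, 7 and 5 clusters, and the miR-29 family in 8, 6, 3, 7 and 5. At P7 both had 3.85% of the member clusters (1.88 to 7.73), an interval that overlaps that of the miR-15 family. Over all mRNA clusters their P7 shares were 2.14% and 1.35%. At e18.5 miR-145a-5p had 4.62% (2.36 to 8.86), beside 1.97% of all. Apart from the miR-29 family at P7 and miR-145a-5p at e18.5, each interval held the share of all mRNA clusters.

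Few sites of the members were listed in every table. Of 4171 sites, counted once per position and seed, 66 in 17 genes were listed in all 5 tables (1.58%, beside 0.762% of 1052732 sites over all genes), and 64.2% were in 1 table alone, beside 77.3% over all genes. Sites of 7 or 8 bases made up 31 of the 66. Rpl6, a large-subunit protein, had 14 of them. A 6mer of miR-16-5p and its family in Rpl6, at chr5:121206702-121206707, had 21.3, 11.4, 15.1, 5.21 and 2.05 scaled reads from e12.5 to adult liver. A 6mer of the hepatocyte miRNA miR-122-5p lies 60 bases downstream in the same gene and had 9.78, 7.08, 6.15, 11.3 and 5.75, highest at P7. The miR-26 site of Rps3a1 had 3.77, 0.666, 1.54, 4.85 and 1.73.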

How the data were processed

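Ago HITS-CLIP tables of miRNA-target interactions of mouse liver, 5 in all and 1 per stage, were used, and each was assigned to its stage by the sample title. The authors mapped the reads with Bowtie to mm10 and the miRNA precursors of miRBase, grouped overlapping reads into clusters, annotated these and scanned them for seed matches; the submitters' processing notes also name mm9, and Bowtie's version is not given in the sources used here. The deposited read column is a signal, whole numbers of at least 5 that were not scaled to depth, and its name at e12.5 differs from that in the other tables. The deposited conservation score was used as given, and the deposited free energy score was not used. The whole number in each interaction name, not explained in the tables, was taken as the miRNA's read count. The methods name 2 biological replicates for Ago2, while the labels give 1 sample per stage, and whether the 2 lists of each embryonic table are such replicates is not stated. The study's lists of reads and interactions name a second library for e18.5 alone, and which of the lists it gave is not stated.

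Clusters of the lists that overlapped on a strand were counted once, and their reads were added. Reads were scaled to the summed cluster reads of the table, between 13008703 at e18.5 and 44867326 at e12.5; loci of miRNA genes are part of these sums, and mRNA clusters made up 13.5% to 30.0% of them. Clusters without a site are not in the tables, so these sums are below the library depth. A cluster under several genes or regions was counted for each. A pseudocount of 1 scaled read, a filter at a mean of 2 scaled reads and a call at 2-fold were used. Shares have Wilson 95% intervals. PCR reads are not independent molecules. The 24 bases around each site were counted in GRCm38 on both strands. Site positions were checked against the genome, the miRNA sequences of the tables were identical to the RefSeq ones for those printed, and the fold calls and intervals were tested on simulated data.

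The members and gene lists were chosen with earlier results of these data known. Named were the 10 members with the highest mean, the 6 highest and 6 lowest changes of adult over e12.5 and 3 each of P7 over e18.5, every paralog or like-named gene, members with a 3′UTR cluster in all tables, the 8 highest sites of 7 or 8 bases per region of miRNAs among the 50 most abundant of a table, and up to 4 genes per further list. Some items that this rule names are not reported here. For leukocyte, endothelial and mesenchymal markers the sums were 34.0, 17.2 and 73.8 scaled reads at e12.5 and 139, 165 and 68.2 in adult liver. The alternatives were other minimum reads, pseudocounts, filters, denominators, centring, lists, members, seed types and once-found sequences. Python 3.11.15, numpy 2.4.6, pandas 2.3.3, numba 0.67.0 and matplotlib 3.10.9 were used.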

Additional observations from a re-analysis of the deposited data

Results flagged for a closer look

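Introns of genes that fit the name rule, Rps12 included, which has no entry in a CDS or UTR, are outside the regions analysed above. Part of the clusters there lay over small nucleolar RNAs (snoRNAs), which guide the modification of ribosomal RNA and are processed from introns. Intron clusters with no listing under a CDS or UTR of a member numbered 58, 23, 21, 31 and 27 from e12.5 to adult liver. Of these, 28, 10, 9, 17 and 20 lay over a snoRNA. All intron clusters together had 91.4, 57.8, 93.7, 70.1 and 59.2 scaled reads, with adult liver below e12.5. Those over a snoRNA had 40.0, 26.2, 41.9, 55.9 and 53.3. For these, adult liver was above e12.5, unlike for the mRNA clusters of the members. The highest were Snora7a in Rpl32, with a mean of 9.12 scaled reads over the 5 tables, Snord83b in Rpl3 with 5.94 and the snoRNA gene Gm23130 in Rps12 with 5.32. Snora7a had 1.34, 6.54, 8.30, 15.6 and 13.8 from e12.5 to adult liver.

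Entries under symbols with -ps, which the rule leaves out, formed 442 clusters at e12.5 against 114 in adult liver, with 703 and 95.8 scaled reads. How many of these reads come from the parent genes was not tested.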

How the results depend on the processing

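The count of members listed in at least 1 table, 80, stayed between 72 and 80. The log2 ratio of summed reads, adult over e12.5, was -3.65, and it stayed below 0 throughout. It was -3.79 with at least 10 reads per cluster, -3.74 with the first list alone, -3.74 without paralogs and like-named genes, -4.12 with once-found sites, -2.86 relative to mRNA cluster reads, -3.35 relative to the study's total reads and -3.28 without the highest cluster of each table. Added after seeing the data, it was -3.20 without Rpl26, -3.01 without Rpl26 and Rps19, and -2.74 with clusters in which no site is found elsewhere. Of 1245 clusters over the 5 tables, 756 remained with the first list alone and 498 with once-found sites. The CDS share of 86.1% became 88.5% and 77.7% in these settings.

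For adult against e12.5, 56 members lower became 36 of 59 with a pseudocount of 5 (33.5% of all genes), 20 of 21 with a filter of 10 (54.8%), 26 of 29 with once-found sites (48.2%) and 9 of 10 with no site found elsewhere (47.3%). For P7 against e18.5, 32 became 17 of 59 (20.4% of all genes), 11 of 21 (34.1%), 13 of 29 (29.9%) and 4 of 10 (30.6%) in these settings, and 5 of 50 with the second list alone (14.2%). The reduced numbers of members follow from the filters. Rps2 turned to 1.27 with once-found sites, and with the second list of e18.5 Rpl13 turned to 0.93 and Rps3 to 0.50; the cause was not tested. Relative to the study's total reads with both e18.5 libraries added, a setting added after seeing the data, adult over e12.5 stayed at -3.35 and 56 of 63 members were lower, but for P7 against e18.5 1 was lower, Rps3 turned to 1.15, Rpl4 to 1.56, Rpl35a to 1.49, Rps27l to 1.11 and Rpl14 to 0.74, which follows from the larger e18.5 total. The share of member clusters with a site of the 20 most abundant miRNAs, 18.8%, became 11.3% with sites of 7 or 8 bases and 29.1% with the 50 most abundant miRNAs. The 66 sites in all 5 tables became 31 with 7 or 8 bases. No paired analysis was possible because each stage has 1 sample. With 5 reads the lowest listed height, an unlisted gene at e18.5 or in adult liver may lie just below it.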
